A study of Mus musculus with 6 samples.

Results

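The genes described here are 8 of neurotrophin signalling in retinal ganglion cells (RGCs), which send the axons of the optic nerve to the brain: the ligand gene Bdnf, the receptor genes Ntrk2, Ntrk3 and Ngfr, the co-receptor gene Sort1, and the adaptor genes Kidins220, Frs2 and Frs3. They were chosen by name, and all 8 are among the 10162 genes of the poly-A RNA-seq table and among the 9987 that were tested. RGCs of wild-type mice of strain C57/6NCrl were measured in 3 groups of 2 libraries. Adult control RGCs carried AAV2 with mCherry and a scrambled shRNA mimic, and adult miR-1247 RGCs carried AAV2 with mCherry and a miR-1247-5p mimic instead, miR-1247-5p being a microRNA. Each adult condition drew about 5000 cells from 10 pooled retinas, bound to Thy1 antibody and then sorted for mCherry. RGCs of embryonic day 18 (E18) were untreated, about 50000 cells bound to Thy1 antibody with no sort. Age, virus, sort and cell number therefore cannot be told apart between E18 and adult libraries. All groups depend on Thy1 for purification. Whether the 2 libraries of a group stem from separate animals is not stated, so p-values reflect only how far these libraries differ, and that spread may be technical.

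Neurotrophins are secreted survival and growth factors of neurons. BDNF binds the tyrosine kinase receptor TrkB (gene Ntrk2), and NT-3 binds TrkC (Ntrk3). Both also bind p75NTR (Ngfr), a receptor without kinase activity that, together with sortilin (Sort1), binds the uncleaved proneurotrophins. Active Trk receptors recruit FRS2 and FRS3, which lead to Ras and ERK, and Kidins220, a membrane-spanning scaffold also called ARMS that prolongs ERK signalling. In the retina BDNF acting on TrkB is known to support the survival of RGCs, while Müller glia are known to express p75NTR and a TrkB form without the kinase domain.

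Values are FPKM (fragments scaled to transcript length and library size), so levels can be set side by side between genes. Reads behind them are not given, the depth is unknown, and no counting interval can be stated. Libraries of a group correlated at 0.980 to 0.985 (log2 values across genes), libraries of the 2 adult groups at 0.960 to 0.962, and E18 with either adult group at 0.692 to 0.701. Of 15 RGC marker genes 14 have an entry, all above 0 in every library. Only 51 to 152 of the 10162 genes were at 0 in a given library, so this says little about the cell type. The summed level of the 14 RGC markers was 3420 to 3470 FPKM in control, 2120 to 2140 FPKM in miR-1247 and 5640 to 5650 FPKM in E18 libraries. Of the 14, 11 were called higher and 3 lower at E18 than in control. Thy1, whose antibody served the purification, was among the 3 lower ones. It stood at 863 and 847 FPKM in control, 643 and 618 FPKM in miR-1247 and 358 and 346 FPKM in E18 libraries. Of 18 Müller glia and astrocyte markers 8 have an entry, and the defining genes Rlbp1, Slc1a3, Aqp4 and Gfap have none. The 8 summed to 1270 to 1620 FPKM in control, 1960 to 2070 FPKM in miR-1247 and 243 to 247 FPKM in E18 libraries. None of the 7 microglia and 7 endothelial and pericyte markers has an entry.

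Each gene of the set is 1 assembled locus in the table. In GENCODE M39 (GRCm39, the same assembly as mm39) they lie at chr2:109505045-109557475 (Bdnf), chr13:58954176-59281784 (Ntrk2), chr7:77825707-78387760 (Ntrk3), chr11:95459638-95478561 (Ngfr), chr3:108191285-108268842 (Sort1), chr12:25024044-25118577 (Kidins220), chr10:116905331-116984439 (Frs2) and chr17:47998506-48016180 (Frs3). The assembled loci do not match these annotated spans in every case. The Ntrk3 locus is 405080 bases long against 562054 for the annotated gene. The Frs3 locus is 9100 bases long against 17675, and it also overlaps the coding gene Prickle4. A value covers every isoform of its locus. For Ntrk2, with 30 protein-coding transcripts in GENCODE, full-length and kinase-lacking TrkB therefore cannot be told apart. The named library kit records no strand, so reads of overlapping genes cannot be told apart. Exons of Frs3 overlap those of 5 annotated genes, with Tomm6, Prickle4 and Frs3os on the opposite strand among them, and exons of Ntrk3 overlap Gm9885. Exons of Bdnf, Sort1 and Kidins220 overlap only predicted genes of the opposite strand. Exons of Ntrk2, Ngfr and Frs2 overlap no other annotated gene.

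Within the adult control libraries Kidins220 and Sort1 had the highest levels, at 57.0 ± 0.490 and 55.3 ± 1.54 FPKM (mean ± SD, n = 2 here and throughout). Their means stood above those of 87.5% and 87.0% of the tested genes. The receptors lay lower, with Ngfr at 18.9 ± 0.00537 FPKM, Ntrk2 at 16.2 ± 0.652 FPKM and Ntrk3 at 10.4 ± 0.250 FPKM. Frs3 lay at 16.0 ± 0.196 FPKM, a level that the Ntrk2 libraries bracket, and Frs2 at 8.68 ± 0.478 FPKM. Bdnf was the lowest, at 5.87 ± 2.07 FPKM and above 23.9% of tested genes. At E18 Kidins220 held 59.7% and 61.1% of the summed level of the 8 genes in the 2 libraries, against 30.5% and 30.0% in control. In both miR-1247 libraries Sort1 and not Kidins220 ranked first, by a narrow margin (48.3 against 47.8 FPKM and 48.6 against 48.1 FPKM).

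**Figure D1:**
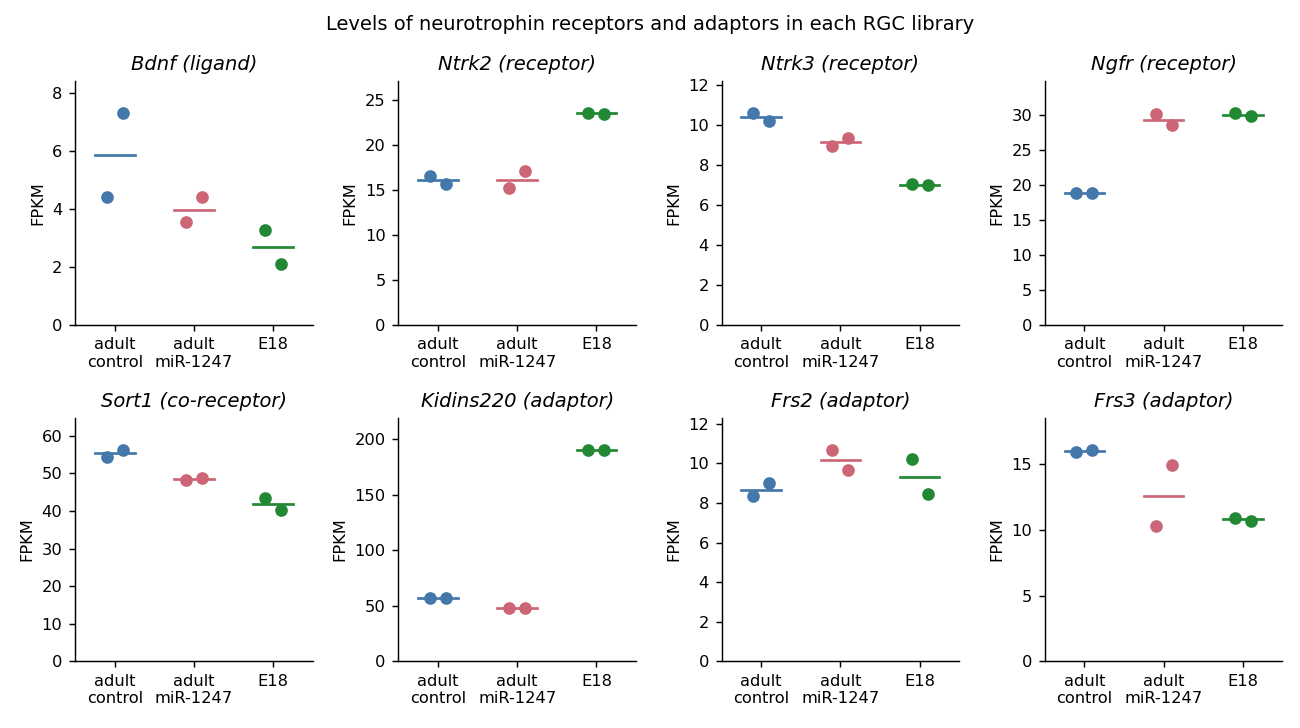
Level of each gene in FPKM (y axis, linear from 0, own scale in each panel) in the 3 groups (x axis); points are the 2 libraries of a group and lines their mean. Kidins220 is near 190 FPKM in both E18 libraries and under 60 FPKM in all adult ones, and Ngfr lies near 30 FPKM in miR-1247 and E18 libraries against 18.9 FPKM in control.

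The comparison of E18 with adult control RGCs asks how these genes differ between embryonic and adult cells. Kidins220, Ngfr and Ntrk2 were higher at E18, and Bdnf, Ntrk3, Sort1 and Frs3 were lower, so that 3 rose, 4 fell and Frs2 did not pass. By the limma test with Benjamini-Hochberg adjustment over all 9987 genes, 70.1% of tested genes were called in this comparison (40.2% higher and 29.8% lower), and 7 of 8 is close to that share. The groups did not overlap for 7 of the 8 genes, against 85.5% of all tested genes. The median fitted change of the 8 was −0.15 (log2), beside 0.16 for all tested genes. Under median ratio scaling the median of all genes moved to 0.02, and the 7 changes became 1.57 (Kidins220), 0.49 (Ngfr), 0.37 (Ntrk2), −0.55 (Sort1), −0.65 (Ntrk3), −0.68 (Frs3) and −1.0 (Bdnf). All 7 kept their calls there, and the uncalled Frs2 moved from 0.09 to −0.05.

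Bdnf, the ligand, measured 4.41 and 7.33 FPKM in control and 3.29 and 2.09 FPKM in E18 libraries. The control libraries differ from each other by more than the lower one differs from E18. The fitted log2 fold change was −0.88 ± 0.272 (SE, here and below), with adjusted p = 0.0243. The call was lost without control library 2 (−0.57, adjusted p = 0.124) or without E18 library 2 (−0.65, adjusted p = 0.145), and over the 15 alternatives that gave a value the adjusted p ran from 0.0129 to 0.145.

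The receptors of the Trk family moved in opposite directions. Ntrk2 measured 16.6 and 15.7 FPKM in control and 23.6 and 23.5 FPKM in E18 libraries, a log2 fold change of 0.52 ± 0.102 (adjusted p = 0.00381). Ntrk3 measured 10.6 and 10.2 FPKM in control and 7.02 and 6.99 FPKM in E18 libraries, a change of −0.51 ± 0.120 (adjusted p = 0.00824). Neither pair of groups overlaps, and both calls held under all 16 alternatives. The ratio of Ntrk2 to Ntrk3 within a library was 3.36 in both E18 libraries and 1.57 and 1.54 in the control libraries.

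Ngfr, which encodes p75NTR, measured 18.9 FPKM in both control libraries and 30.3 and 29.8 FPKM in E18 libraries. The log2 fold change was 0.64 ± 0.0817 (adjusted p = 0.000473). Sort1 went the other way, from 54.2 and 56.3 FPKM in control to 43.4 and 40.1 FPKM at E18 (−0.40 ± 0.0713, adjusted p = 0.00241). Each call held under all 16 alternatives. The ratio of Sort1 to Ngfr was 2.86 and 2.97 in control and 1.43 and 1.35 at E18. Of the 8 glial markers with an entry 5 were lower and 2 higher at E18, and their part in the Ngfr and Ntrk2 values was not tested.

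Kidins220 had the largest change of the 8, from 56.7 and 57.4 FPKM in control to 190.2 and 190.9 FPKM at E18. The log2 fold change of 1.72 ± 0.0533 (adjusted p = 7.83e-07) was larger in size than that of 85.8% of tested genes. The changes of the other 7 lay between the 6.93% and the 59.3% mark of that ranking. Frs3 measured 15.9 and 16.1 FPKM in control and 10.9 and 10.7 FPKM at E18 (−0.53 ± 0.171, adjusted p = 0.0282). Its call was lost without either control library or either E18 library, with an adjusted p of 0.0848 to 0.119 there and 0.00735 to 0.119 over all 16 alternatives. Frs2 was at 8.34 and 9.01 FPKM in control and 10.2 and 8.45 FPKM at E18. These groups overlap, and the 95% interval of the difference (−0.25 to 0.43, log2) covers changes of either sign. The ratio of Frs2 to Frs3 was 0.526 and 0.558 in control and 0.940 and 0.793 in E18 libraries.

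**Figure D2:**
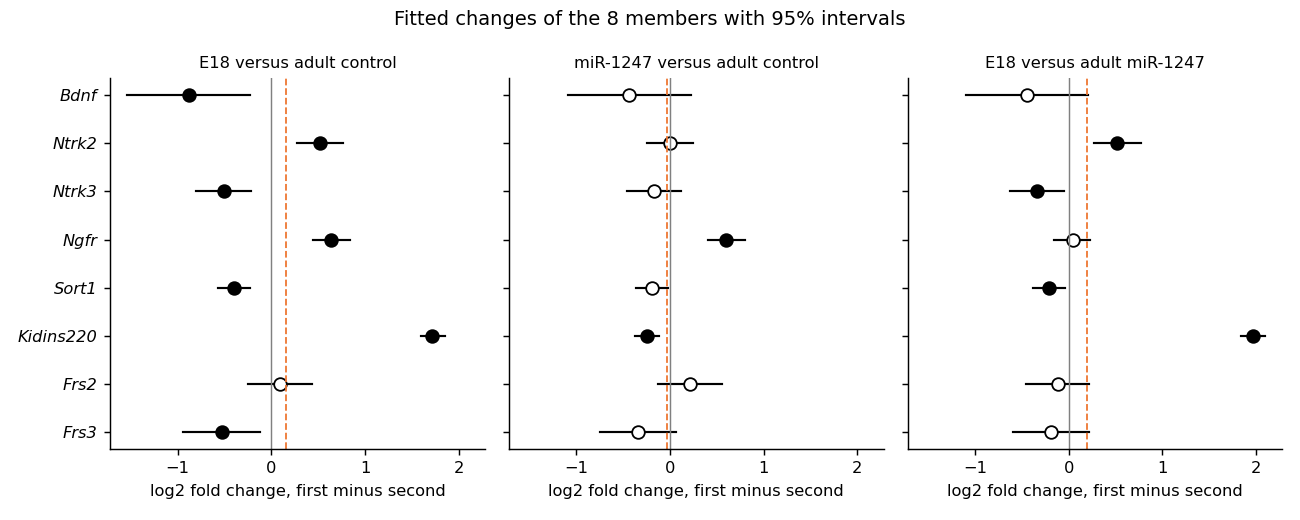
Log2 fold change on the log2(FPKM + 1) scale (x axis, first group minus second) of the 8 genes (y axis) in the 3 comparisons. Points are fitted values, filled where adjusted p is below 0.05, black lines are 95% intervals and the orange dashed line is the median of all 9987 tested genes. Kidins220 stands at 1.72 and 1.97 in the comparisons with E18, and Ngfr at 0.60 in miR-1247 against control.

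At the same age and with the same sort, the libraries with the miR-1247-5p mimic were set against those with the scrambled mimic. Ngfr rose and Kidins220 fell, and the other 6 genes did not pass. Across all genes 9.75% were called by limma (3.53% higher and 6.22% lower), against 2 of the 8 here, 1 in each direction. The share of higher calls was 36.2% as deposited, 46.6% under median ratio scaling and 15.1% with equal totals. The groups did not overlap for 7 of the 8 genes (57.7% of all tested genes), Ntrk2 being the exception. The median change of the 8 was −0.18 (log2), beside −0.03 for all tested genes.

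Ngfr measured 18.9 FPKM in both control libraries and 30.1 and 28.5 FPKM in miR-1247 libraries. The log2 fold change was 0.60 ± 0.0817 (95% interval 0.41 to 0.80, adjusted p = 0.0127), larger in size than that of 90.7% of tested genes. The call held under all 10 alternatives that keep every library of the groups compared and without either E18 library. It was lost without control library 1 (adjusted p = 0.0565), control library 2 (0.0594), miR-1247 library 1 (0.0811) or miR-1247 library 2 (0.0648), while the fitted change stayed between 0.50 and 0.64 in all 16 alternatives, whose adjusted p ran from 0.0111 to 0.0811. The miR-1247 level of 29.3 ± 1.13 FPKM and the E18 level of 30.1 ± 0.347 FPKM overlap. Their difference was 0.04 (log2, 95% interval −0.16 to 0.23, adjusted p = 0.700), and −0.15 under median ratio scaling.

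Other marker genes moved beside Ngfr. All 14 RGC markers with an entry fell in miR-1247 libraries, and of the 8 Müller glia and astrocyte markers 2 rose and none fell. The glial sum was lower in both control libraries than in either miR-1247 library (1270 to 1620 against 1960 to 2070 FPKM). Glul stood at 463 and 122 FPKM in control, a wide pair, and at 795 and 632 FPKM in miR-1247. Dkk3, Clu and Dbi were also higher in both miR-1247 libraries, with Dkk3 at 391 and 366 against 476 and 486 FPKM. Aldoc, Apoe, Vim and Crym overlapped between the groups, with Aldoc at 511 and 530 against 509 and 536 FPKM. The part of the glial markers in the Ngfr value was not tested. In bulk RNA, fewer cells of a type and less RNA per cell cannot be told apart.

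Kidins220 measured 56.7 and 57.4 FPKM in control and 47.8 and 48.1 FPKM in miR-1247 libraries, a gap wider than the spread within either group. The log2 fold change of −0.25 ± 0.0533 passed narrowly (adjusted p = 0.0398) and was larger in size than that of 57.3% of tested genes. The call was lost without each of the 6 libraries in turn (adjusted p 0.0742 to 0.134) and under median ratio scaling (−0.21, adjusted p = 0.057), among 11 of 16 alternatives with a range of 0.0366 to 0.134. The direction was the same in all 16, and it is opposite to the difference between E18 and control.

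None of the other members of the set passed. Ntrk2 measured 15.2 and 17.1 FPKM with miR-1247, on either side of the control values, and the 95% interval of its change was −0.25 to 0.24 (log2). Ntrk3 was at 8.96 and 9.32 FPKM (−0.17, interval −0.46 to 0.12) and Sort1 at 48.3 and 48.6 FPKM (−0.19, interval −0.36 to −0.02, adjusted p = 0.147). Both lay below the control libraries and above the E18 libraries. Bdnf was at 3.56 and 4.41 FPKM (−0.44, interval −1.09 to 0.22), and its upper value equals the lower control value to the digits shown. Frs3 was at 10.3 and 14.9 FPKM, the widest pair of the set relative to its mean in this group (−0.34, interval −0.75 to 0.06). Frs2 was at 10.7 and 9.68 FPKM (0.21, interval −0.13 to 0.55). With these intervals, changes of the size of the Ngfr rise are outside the range for Ntrk2 in either direction, but a fall of that size is inside it for Bdnf and Frs3.

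The sequence of the introduced microRNA (RefSeq, GRCm38.p6, chr12:110278094-110278115, minus strand) is shown with its seed, bases 2 to 8, in capitals. Below it are the matches to that seed in the 3′UTRs of the 8 genes, in the GENCODE canonical transcripts on GRCm39, with the complement of the seed (GGACGGG) in capitals. The Bdnf match begins at base 539 of a 2978-base 3′UTR (chr2:109555026-109555052, plus strand) and the Frs2 match at base 2843 of 4503 (chr10:116906975-116907001, minus strand).
miR-1247-5p: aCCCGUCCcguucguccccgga
Bdnf: ctggcgtaagGGACGGGgaatgggagg
Frs2: attgcaaatgGGACGGGgccttatgtg

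These 2 genes of the 8 hold a seed match, against 3.32% of the 9448 tested genes with an annotated 3′UTR. The 3′UTRs of the 8 genes run from 882 to 16600 bases, and that share was not matched for length. An excess of matches therefore cannot be read from it. Neither Bdnf (−0.44, log2) nor Frs2 (0.21) passed the test between miR-1247 and control. Ngfr and Kidins220, the genes that passed, have no match to bases 2 to 8 in 1985 and 882 bases of 3′UTR. Matches to bases 2 to 7 (GACGGG), counted with those inside the longer matches, number 1 in Bdnf, 2 in Frs2, 2 in Ntrk2 and 1 in Kidins220. Counted the same way, 9.10% of the tested genes with an annotated 3′UTR hold such a match. A match is a run of letters in this annotation and was not tested as a binding site.

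Ngfr and Kidins220 passed in both comparisons with control, so the sequence around their annotated start is shown (RefSeq, GRCm38.p6, from 250 bases before to 50 after the start, 300 bases in 5′ to 3′ order of the gene). Capitals mark every match, on either strand, to the GC box GGGCGG, the cAMP response element TGACGTCA or the E-box CACGTG.
Ngfr, chr11:95587649-95587948, strand -: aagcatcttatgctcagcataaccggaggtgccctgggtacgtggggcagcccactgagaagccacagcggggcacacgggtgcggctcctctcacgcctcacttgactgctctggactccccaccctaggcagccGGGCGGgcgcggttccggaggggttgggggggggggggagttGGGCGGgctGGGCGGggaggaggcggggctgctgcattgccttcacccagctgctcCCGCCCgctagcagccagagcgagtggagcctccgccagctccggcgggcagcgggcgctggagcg
Kidins220, chr12:24974682-24974981, strand +: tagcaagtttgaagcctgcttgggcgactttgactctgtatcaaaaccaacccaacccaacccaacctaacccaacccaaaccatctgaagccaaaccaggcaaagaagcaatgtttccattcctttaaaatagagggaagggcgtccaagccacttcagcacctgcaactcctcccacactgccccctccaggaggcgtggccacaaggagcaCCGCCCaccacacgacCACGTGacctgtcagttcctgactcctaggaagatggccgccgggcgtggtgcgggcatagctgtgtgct

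The Ngfr window holds 4 GC boxes and is 71.7% G and C, and the Kidins220 window holds 1 GC box and 1 E-box at 56.0% G and C. RefSeq windows were found for 6 of the 8 genes, 12 windows in all, 7 of them for Bdnf, whose alternative first exons each have a start. A GC box was in 7 of the 12 windows and in 35.7% of the 32851 windows of all genes. The E-box of Kidins220 was the only one in the 12 (7.15% of all windows), and none held the cAMP response element (1.79% of all windows). The Frs3 window holds 5 GC boxes, some of which overlap. These counts are descriptions of letters, and binding at these windows was not measured.

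E18 and miR-1247 libraries were compared as the remaining pair, which shares its libraries with both comparisons above. Here 4 of the 8 passed, 2 in each direction, where 69.9% of all tested genes did (41.5% higher and 28.4% lower). The groups did not overlap for 5 of the 8, against 86.3% of all tested genes. Kidins220 was 1.97 ± 0.0533 higher at E18 (log2, adjusted p = 4.84e-07) and Ntrk2 0.52 ± 0.102 higher (adjusted p = 0.00367). Ntrk3 was lower at E18 by the log2 change −0.34 ± 0.120 (adjusted p = 0.0399) and Sort1 by −0.21 ± 0.0713 (adjusted p = 0.0347). The Ntrk3 call was lost without each library in turn (adjusted p 0.0532 to 0.129). The Sort1 call was lost without E18 library 2 (0.127), miR-1247 library 1 (0.0978) or miR-1247 library 2 (0.108). Bdnf (−0.45), Frs2 (−0.12), Frs3 (−0.19) and Ngfr (0.04) did not pass.

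Ordered by level, the groups of Ntrk3 and Sort1 descend from control to miR-1247 to E18 with no overlap between neighbours, although the step from control to miR-1247 did not pass for either. Ntrk2 has the control and miR-1247 libraries interleaved below E18. Ngfr has control alone below and the other groups interleaved, and Kidins220 descends from E18 to control to miR-1247. Bdnf descends from control to miR-1247 to E18, with neighbours that nearly touch. For Frs2 E18 overlaps both adult groups, and for Frs3 the miR-1247 libraries, at 10.3 and 14.9 FPKM, span both E18 values. The ratio of Ngfr to Ntrk2 was 1.98 and 1.67 in miR-1247 libraries, 1.14 and 1.21 in control and 1.28 and 1.27 at E18. It was thus highest in the miR-1247 libraries, where Ngfr had risen and Ntrk2 had not passed the test. These ratios are descriptions and were not tested.

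**Figure D3:**
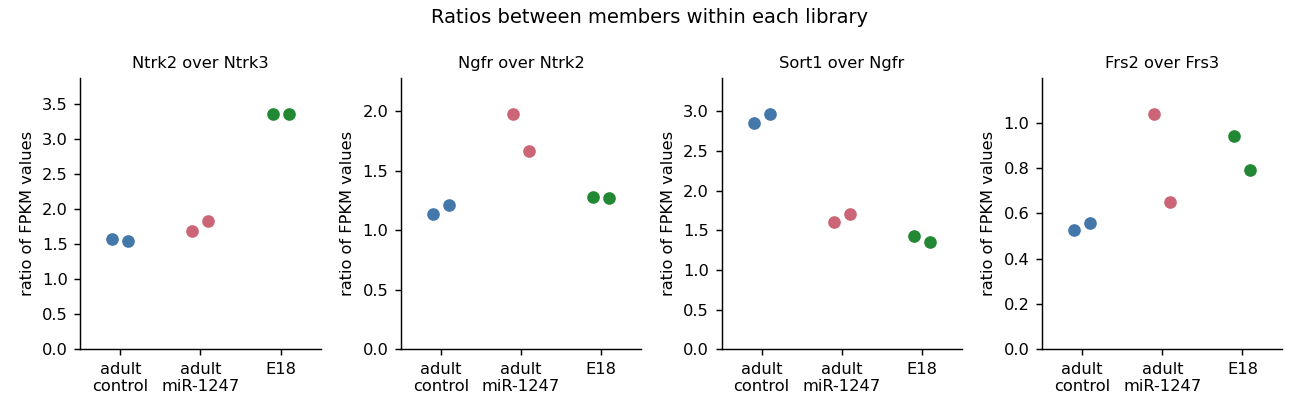
Ratios of FPKM values between pairs of the 8 genes (y axis, linear from 0) in each library (points) of the 3 groups (x axis). Ntrk2 over Ntrk3 is 3.36 in both E18 libraries and 1.54 to 1.83 in adult ones, and Ngfr over Ntrk2 is highest in the miR-1247 libraries at 1.67 and 1.98.

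The genes with the most similar profiles were found by the root mean square difference between log2(FPKM + 1) values centred on each gene's own mean over the 6 libraries. Nearest to Ngfr were Mrpl34, a mitochondrial ribosomal protein gene (0.0384, with 32.0, 50.2 and 53.6 FPKM in control, miR-1247 and E18), and Agk, a lipid kinase gene (0.0526). Nearest to Kidins220 were Hdac2, a histone deacetylase gene (0.0415), and Tbcd, a tubulin folding cofactor gene (0.0435). The pairs for the others were Chd1 and Ube2r2 for Ntrk2 (0.0282 and 0.0328), Hsph1 and Rtl6 for Ntrk3 (0.0275 and 0.0294), and Mbtps1 and Epb41l3 for Sort1 (0.0145 and 0.0312). For Frs2 they were Stambpl1 and Raly (0.0314 and 0.0379), for Frs3 Bcdin3d and Tmem251 (0.0424 and 0.0441), and for Bdnf Hlcs and Hgsnat (0.116 and 0.121). Within a distance of 0.1 there were 16 genes for Ngfr, 45 for Kidins220, 232 for Sort1 and none for Bdnf.

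The rest of the pathway was described with lists of 169 other genes, of which 148 have an entry and were tested. Between E18 and control 57 of them rose and 54 fell, 111 of 148 where 70.1% of all tested genes were called, with a median change of 0.01 (log2). Of the ligand and processing list, Ntf3 and Ntf5, which encode other neurotrophins, have no entry. Of its 6 tested genes 4 fell and 1 rose at E18. Mmp9, a protease known to cleave proBDNF outside the cell, fell from 67.1 ± 3.14 to 0.258 ± 0.175 FPKM (−5.77 ± 0.125, adjusted p = 2.35e-07). Pcsk1, a prohormone convertase, fell from 18.3 ± 1.10 to 1.61 ± 0.167 FPKM. The locus of Cpe and Msmo1 rose by 0.40. Cpe encodes a carboxypeptidase that takes part in sorting of proBDNF, and Msmo1 a cholesterol synthesis enzyme, whose shares of the locus cannot be told apart.

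Of 9 other receptors and co-receptors 6 fell and 1 rose at E18, and the median change was −0.70. Sorl1, of the sortilin family like Sort1, fell from 39.3 ± 0.935 to 5.11 ± 0.108 FPKM, a change of −2.72 against −0.40 for Sort1. The sortilin relatives Sorcs1 (−0.70), Sorcs2 (−1.40) and Sorcs3 (−1.58) fell as well, and are named for their kinship to Sort1. Nradd, which encodes a protein related to p75NTR, rose from 1.35 ± 0.389 to 10.7 ± 0.483 FPKM (2.33 ± 0.190, adjusted p = 5.66e-05).

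Among 22 adaptors at Trk docking sites 10 rose, 5 fell and 7 did not pass at E18. Plcg1, the phospholipase that binds active Trk receptors, rose from 10.0 ± 0.00856 to 44.7 ± 3.65 FPKM, and Sh2b2 rose by 2.74 ± 0.326. The scaffold gene Magi2 fell by 1.48 on the log2 scale, and Irs2 fell by 0.87. Of 16 p75NTR partners 5 rose and 6 fell. Traf4, which encodes a TRAF protein that binds p75NTR, rose from 1.22 ± 0.665 to 60.1 ± 1.11 FPKM (4.81 ± 0.238, adjusted p = 6.10e-06). Adam10, a sheddase, rose by 1.33, Sqstm1, a scaffold and autophagy receptor, fell by 1.43 and Bex1 fell by 0.78. In adult libraries Bex3 (286 to 299 FPKM) and Maged1 (275 to 289 FPKM), which encode binding partners of p75NTR, stood well above Ngfr itself. These levels were chosen for mention after they were seen.

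Of 21 genes of the Ras and ERK arm 9 rose and 5 fell. Nras rose from 2.78 ± 0.194 to 22.7 ± 1.92 FPKM and Mapk7, which encodes ERK5, from 3.13 ± 0.0242 to 24.7 ± 2.63 FPKM. Rasgrf1, a calcium-dependent Ras activator, fell by 6.54 and the neuronal GTPase gene Rit2 fell by 1.83. Of 23 genes of the PI3K, Akt and PLC-gamma arm 7 rose and 10 fell. Prkcd rose by 2.62 and Pik3cd by 1.99, while Itpr1, the receptor for IP3, fell from 15.8 ± 0.120 to 0.579 ± 0.142 FPKM and Camk2a from 46.7 ± 2.68 to 6.93 ± 0.227 FPKM. Of 22 genes of receptor trafficking and degradation 12 rose and 8 fell. Hap1, known to carry BDNF vesicles along axons, fell from 59.1 ± 0.479 to 6.27 ± 0.301 FPKM, and Ehd4, an endocytic protein of Trk receptors, fell by 2.10. The dynein light chain gene Dynlt1f rose by 2.70, and it was at 0 in 1 control library. Rab11a, of recycling endosomes, was called higher (2.29 ± 0.690), but its E18 libraries stood at 133 and 750 FPKM. The Rab11a call was lost without either control library.

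**Figure D4:**
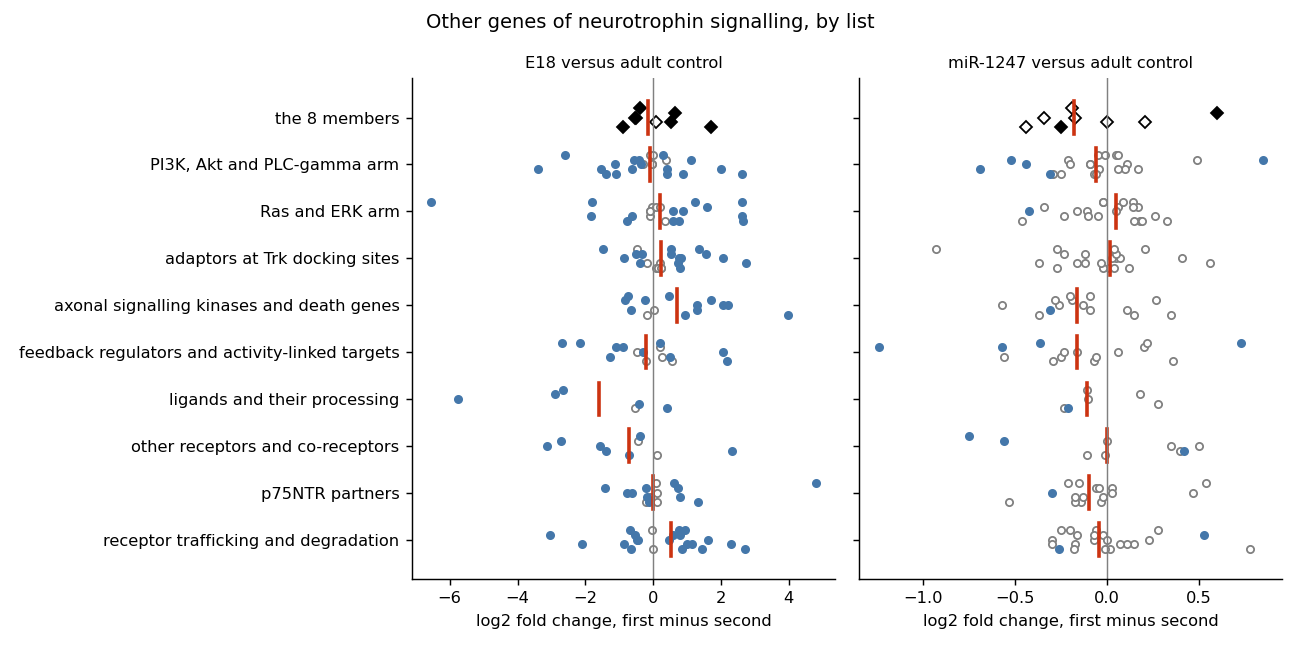
Log2 fold changes on the log2(FPKM + 1) scale (x axis, first group minus second; the panels have different ranges) of the tested genes of each pathway list (rows), with the 8 genes on top as diamonds. Filled symbols have adjusted p below 0.05, open ones do not, and red bars are list medians; 111 of the 148 list genes are filled on the left and 18 on the right.

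Of 15 feedback regulators and activity-linked genes 4 rose and 6 fell at E18. Dusp4 and Dusp6, phosphatases that act on ERK, rose by 2.18 ± 0.0984 and 2.06 ± 0.182. Nptx2 and Vgf, genes that BDNF is known to induce in neurons, fell from 106 ± 2.98 to 15.5 ± 0.923 FPKM and from 74.0 ± 5.44 to 15.9 ± 1.52 FPKM.

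Between miR-1247 and control 4 of the 148 pathway genes rose and 14 fell, 12.2% against 9.75% of all tested genes, with a median change of −0.05. Without 1 library this count of 18 was between 1 and 6. Of the 16 calls named by rule, that of Nptx2, which rose from 106 ± 2.98 to 175 ± 2.78 FPKM (0.73 ± 0.0670, adjusted p = 0.00436), held without each of the 6 libraries. The other 15 were lost without at least 4 of them. Spry4, an inhibitor of receptor tyrosine kinase signalling, fell from 6.77 ± 0.167 to 2.30 ± 0.188 FPKM (−1.24 ± 0.158, adjusted p = 0.0113). Fos (−0.36) and Egr1 (−0.57), immediate early genes, fell as well.

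Among receptors, Sorl1 fell from 39.3 ± 0.935 to 26.4 ± 0.209 FPKM and Slitrk5, a TrkB co-receptor, from 12.8 ± 0.727 to 7.24 ± 0.257 FPKM. Sorcs2, which is known to pair with p75NTR, rose by 0.42 over its 2 loci, and lost its call with each locus on its own. Downstream, Pdpk1 (−0.52), Pik3cd (−0.69), Mapk10 (−0.31) and Ptprs (−0.26) fell, as did the Cpe and Msmo1 locus (−0.21) and Rtn4 (−0.30), which encodes Nogo. Pik3r2 (0.85) and Hap1 (0.53) rose. Pdpk1 and Pik3r2 are also sums over 2 loci, and both lost their calls with each locus on its own. None of the 22 adaptors at Trk docking sites passed, and their median change was 0.02.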

How the data were processed

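Poly-A RNA of 6 RGC libraries was sequenced as read pairs of 100 bases each, per the labels' protocols, from RNA with an integrity number of at least 9, per the series' design text. That text says that reads were mapped to mm39 with HISAT2 and FPKM values analysed with Cufflinks and Cuffdiff, with no versions given. The authors' deposited FPKM table has 1 column per library, and the filter behind its 11104 entries is not given in the sources used here. The 1e-05 added to each entry was taken off. The deposited log2 ratios of group means were within 0.0021 of recomputed ones and served for that check only.

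The different loci of a gene name were summed and names sharing the same loci were taken once, leaving 10162 genes, of which 9987 with a mean of at least 1 FPKM were tested. All 6 libraries entered 1 limma model (limma 3.58.1, R 4.3.3) of log2(FPKM + 1) with 3 group means and a variance trend, tested on simulated data first. Tests are two-sided, adjusted by Benjamini-Hochberg over all tested genes and called at 0.05. Fold changes on this scale understate changes of low genes. In list descriptions, the 2 called genes with the highest and the 2 with the lowest fold change per list and comparison were named. Others named are said to have been chosen after their values were seen, or are relatives of Sort1 or the markers. Some genes that this rule names are not reported here. The members and lists were chosen with earlier results of these data known. Tables were handled with pandas 2.3.3 and NumPy 2.4.6 in Python 3.11.15, and plots made in Matplotlib 3.10.9. The alternatives tried were another pseudocount (0.1), no filter or a minimum of 5 FPKM, single loci, 3 scalings, no variance trend, the 4 libraries compared alone, a replicate block, and each library left out.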

Additional observations from a re-analysis of the deposited data

How the results depend on the processing

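Counts for E18 against control (6998 genes, 111 of the other pathway genes, 7 of the 8 members) stayed within 1.5 times under every alternative run. The counts for miR-1247 against control did not. The 974 genes called became 343 with no variance trend, 347 with only the 4 libraries compared and 584 with a replicate block, and 121 to 242 without 1 library. The 18 other pathway genes became 5, 8 and 10 under the same 3 alternatives, and 1 to 6 without 1 library. The 2 members called, Ngfr and Kidins220, became 1 under median ratio scaling, equal totals without mitochondrial genes, no variance trend, the 4 libraries alone and the replicate block, and 0 to 1 without 1 library. For E18 against miR-1247 the 4 members called became 2 with equal totals and with the replicate block, and 2 to 3 without 1 library. Fewer samples or degrees of freedom are part of some of these alternatives, and the cause was not tested for the others. Of 381 member values under alternatives, 344 kept their side of the threshold, 36 lost a call and 1 gained one. No called member changed sign, but uncalled ones did, such as Frs2 in E18 against control (0.09 and, under median ratio scaling, −0.05) and Ngfr in E18 against miR-1247 (0.04 and −0.15). For other pathway genes 1216 kept their side and 135 lost the call. Deviations of same-numbered libraries correlated between −0.00812 and 0.00353 across genes, so they shared no visible shift. Whether the replicate numbers of the titles mark a shared animal, batch or day is not stated. Such a correlation over all genes cannot decide it. Bdnf has no value at a minimum mean of 5 FPKM. With the depth unknown, no counting intervals can be given, and the 95% intervals cover the spread between libraries.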

Other observations

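A list of axonal signalling kinases and death genes, which act downstream when neurotrophin support is lost, had 8 genes higher and 4 lower at E18 of 14 tested, with a median change of 0.70 (log2). Of all tested genes 40.2% were called higher and 29.8% lower in this comparison, with a median change of 0.16. Bbc3, which encodes the pro-death protein PUMA, rose from 4.30 ± 0.312 FPKM in control to 23.8 ± 3.55 FPKM at E18 (2.22 ± 0.377, limma adjusted p = 0.00185). The survival genes Bcl2 and Bcl2l1 fell, from 2.57 ± 0.0745 to 0.998 ± 0.0246 FPKM and from 91.5 ± 2.26 to 54.7 ± 0.108 FPKM. Between miR-1247 and control Mapk10, which encodes the kinase JNK3, was the only one of the 14 called (54.8 ± 1.54 and 44.0 ± 0.668 FPKM, −0.31 ± 0.0734, adjusted p = 0.0475), and that call was lost without each library in turn. Bbc3 (−0.57), Bcl2 (−0.19) and Bcl2l1 (−0.09) did not pass there.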
